A study of Rattus norvegicus with 32 samples.

Results

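Renal cortex of Zucker Diabetic Sprague Dawley (ZDSD) rats, an obese and diabetic strain, was compared by RNA sequencing between rats given Roux-en-Y gastric bypass with 4 drugs (RYGB-FMRR) and rats given Roux-en-Y gastric bypass alone (RYGB). The comparison was chosen by the surgery and treatment that the sample labels give, and it held 16 of the 31 rats with counts: 7 RYGB-FMRR rats and 9 RYGB rats. All 16 were male ZDSD rats that had undergone RYGB, and the labels give an age of 37 weeks for both groups. The RYGB-FMRR rats also received fenofibrate, metformin, ramipril and rosuvastatin in their chow, starting after recovery from surgery, so the difference is between all drugs together and none of them, and no drug can be separated from the others. Surgery was performed a week earlier in the RYGB-FMRR group than in the RYGB group by the study's methods, and the week of surgery and the drugs cannot be told apart. A further rat labelled RYGB-FMRR was not analysed here. No sham-operated or lean control rat entered the comparison.

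Fenofibrate activates PPARα, a nuclear receptor that in liver and proximal tubule switches on genes for the import and oxidation of fatty acids in peroxisomes and mitochondria. Rosuvastatin inhibits HMG-CoA reductase, the enzyme that limits cholesterol synthesis, and cells respond to falling sterol through transcription factors of the SREBP family. Ramipril blocks the angiotensin-converting enzyme, and metformin lowers glucose output from the liver and acts in part through AMP-activated protein kinase. The counts are listed by Ensembl identifier on the rat build rn5, and neither the files nor the reference tables pair these identifiers with gene names. Genes are therefore given by identifier or position, without their roles. For the same reason the kidney cortex label could not be checked against marker genes. Total RNA was sequenced from whole cortex, in which fewer cells of a type and less RNA per cell cannot be told apart.

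Total counts, the number of read pairs assigned to genes, ran from 19334717 to 25268442 in RYGB-FMRR rats, with a median of 23293075, and from 16399376 to 22184488 in RYGB rats, with a median of 20288430. The RYGB-FMRR libraries were thus deeper on average by 3165000 counts (exact two-sided permutation test over 11440 arrangements of the rats, p = 0.0106, adjusted p = 0.0132 over 5 such tests), although the ranges overlapped. Pairs of rats within a group correlated in log2 CPM, the counts scaled to a common library size, at 0.9731 to 0.9947 in RYGB and at 0.9752 to 0.9936 in RYGB-FMRR, over genes, and no pair of libraries held identical counts.

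The drugs on top of RYGB went with a change in 744 of the 14312 genes tested, which was 5.2%. A gene was called changed where edgeR's quasi-likelihood test gave an adjusted p-value under 0.05 and the groups differed by 1.3-fold or more. Of these genes, 394 (2.75% of those tested) were higher and 350 (2.45%) were lower in RYGB-FMRR, so that 53% of the changed genes were higher. This split depended on the scaling. With libraries scaled by their totals alone, without TMM factors that correct for a few abundant genes, 289 genes were higher and 788 were lower, and the median log2 fold change of all genes was -0.10 in place of -0.02. TMM factors themselves ran from 0.941 to 1.003 in RYGB-FMRR and from 0.982 to 1.063 in RYGB (exact two-sided permutation test, p = 0.000787, adjusted p = 0.00394). Without the 1.3-fold threshold 2123 genes passed, 1211 of them higher and 912 lower.

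With TMM scaling, small changes were about as common in one direction as in the other, and large ones were mostly increases. Between a log2 fold change of 0.38, which is the 1.3-fold threshold, and 0.5 there were 127 higher and 131 lower genes, and between 0.5 and 1 there were 182 and 183. Past a log2 fold change of 1 there were 85 higher and 36 lower genes, and past 2 there were 24 higher and 4 lower. All 9 genes past a log2 fold change of 3 were higher. The median log2 fold change was 0.64 among higher genes and -0.57 among lower genes. With libraries scaled by their totals alone, 20 of 289 higher genes and 4 of 788 lower genes were past 4-fold. The balance of small changes thus depended on the scaling.

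**Figure D1:**
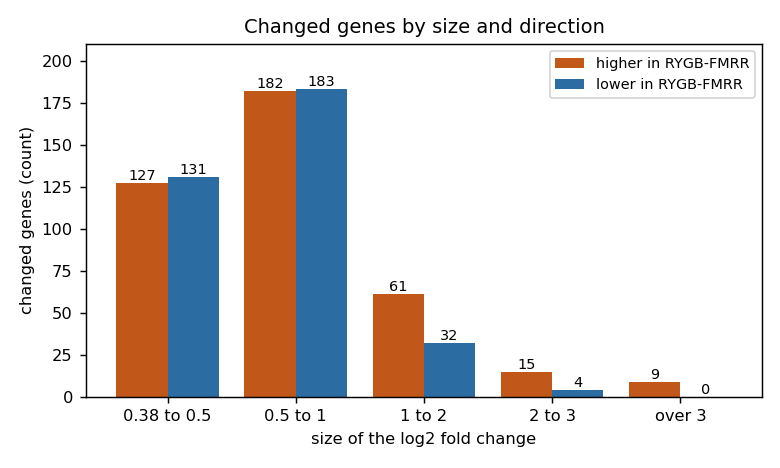
Number of changed genes (y axis) in classes of the size of the log2 fold change between RYGB-FMRR and RYGB (x axis), for genes higher and lower in RYGB-FMRR. With TMM scaling the classes under 1 hold near equal numbers, 127 and 131 and then 182 and 183. The classes above 2 hold 24 higher and 4 lower genes.

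Separation of the groups rat by rat was also more frequent among the higher genes. In 353 of the genes tested (2.47%) the ranges of both groups in log2 CPM did not overlap, and 279 of these were above and 74 below. Among changed genes 186 of the 394 higher genes (47.2%) and 38 of the 350 lower genes (10.9%) had groups that did not overlap. In 27 higher genes the lowest RYGB-FMRR rat stood at least 1 log2 unit above the highest RYGB rat, and 0 lower genes showed the reverse gap. The rats of a group also differed more from each other in the lower genes: the median standard deviation of log2 CPM was 0.263 in RYGB-FMRR and 0.296 in RYGB for lower genes, against 0.209 in either group for higher genes and 0.15 and 0.156 over all genes tested. The lower genes also lay at lower levels, as given below, and whether level accounts for their wider spread was not tested.

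The smallest adjusted p-value among higher genes belonged to ENSRNOG00000001770, a 7-exon gene on the plus strand at chr11:86024803-86057811. Its level ran from 266.5 to 410.4 CPM in RYGB rats, with a median of 365.7, and from 2088 to 2933 CPM in RYGB-FMRR rats, with a median of 2262. Every RYGB-FMRR rat thus stood far above every RYGB rat. The fold change was 6.96, a log2 fold change of 2.80 ± 0.10 (SE, adjusted p = 4.82e-12, edgeR). Per kb of exon the gene moved from a mean of 114 to 791 FPKM, so it was abundant in both groups.

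The largest fold change was that of ENSRNOG00000032202, a 10-exon gene on the plus strand at chr7:11658216-11666646. In RYGB rats the gene had between 10 and 74 counts, or 0.433 to 4.25 CPM with a median of 1.74. In RYGB-FMRR rats it had between 1251 and 3248 counts, or 50.8 to 139.9 CPM with a median of 80.8. The gene was thus near 0 after RYGB alone and well above it in each rat given the drugs, with a log2 fold change of 5.60 ± 0.32 (SE, adjusted p = 1.99e-09, edgeR). Its mean level rose from 0.961 to 45.5 FPKM, and the spread between rats was an SD of 1.02 in log2 CPM after RYGB alone and of 0.50 with the drugs.

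A second gene of the same chromosome, at chr7:18805416-18811643, had a similar pattern. It ran from 0.803 to 3.62 CPM in RYGB rats and from 40.4 to 119.6 CPM in RYGB-FMRR rats, again without overlap, with a log2 fold change of 5.53 ± 0.33 (SE, adjusted p = 2.14e-09, edgeR). The gene at chr4:237973381-238354786 had 0 to 20 counts in RYGB rats and 138 to 430 counts in RYGB-FMRR rats. Not every large fold change separated the groups: the gene at chr5:129878797-129900625, with a log2 fold change of 5.51 ± 0.67 (SE, adjusted p = 2.54e-05, edgeR), ran from 1.38 to 73.6 CPM in RYGB-FMRR rats and reached 1.78 CPM in an RYGB rat. Large folds were also found in genes abundant in RYGB-FMRR. The gene at chr2:219928551-219954859 ran from 31.8 to 134.9 CPM in RYGB and from 602 to 1506 CPM in RYGB-FMRR, and its mean rose from 28.7 to 437 FPKM. Of the 24 higher genes past a log2 fold change of 2, the groups did not overlap in 20. The share without overlap was 47.2% of all higher genes and 2.47% of all genes tested. These 24 genes were chosen by their fold change in the same rats. By mean FPKM over all 16 rats, 6 belonged to the most abundant of 10 equal classes of genes. That mean includes the raised RYGB-FMRR values.

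Among lower genes the smallest adjusted p-value was that of ENSRNOG00000014851, a 7-exon gene on the minus strand at chr9:88062427-88104120. It ran from 113.6 to 163.9 CPM in RYGB rats, with a median of 141.2, and from 73.9 to 88.8 CPM in RYGB-FMRR rats, with a median of 84.4. The groups did not overlap although the change was modest, a log2 fold change of -0.76 ± 0.07 (SE, adjusted p = 5.94e-07, edgeR). The spread between rats was small, with an SD of log2 CPM of 0.10 in RYGB-FMRR and 0.17 in RYGB.

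The largest decrease among lower genes with separated groups was that of ENSRNOG00000011231, a 12-exon gene on the plus strand at chr19:55878687-55952179. It had 100 to 218 counts in RYGB rats and 24 to 81 counts in RYGB-FMRR rats, or 4.78 to 11.5 CPM against 1.03 to 3.29 CPM. The log2 fold change was -2.03 ± 0.25 (SE, adjusted p = 2.99e-05, edgeR), and the mean level went from 2.64 to 0.644 FPKM. The other lower genes past 4-fold overlapped between groups. The largest fitted decrease of all, -2.84 ± 0.92 (SE, adjusted p = 0.0474, edgeR) at chr2:107900583-107909291, rested on RYGB rat 346, which had 106 CPM where the next RYGB rat had 9.71 CPM. Without that rat the log2 fold change was -0.82 ± 0.36 (SE, adjusted p = 0.157, edgeR). The count of 4 lower genes past 4-fold went to 2 without RYGB rat 344 or without RYGB-FMRR rat 312 or 339, and to 1 without RYGB-FMRR rat 324.

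**Figure D2:**
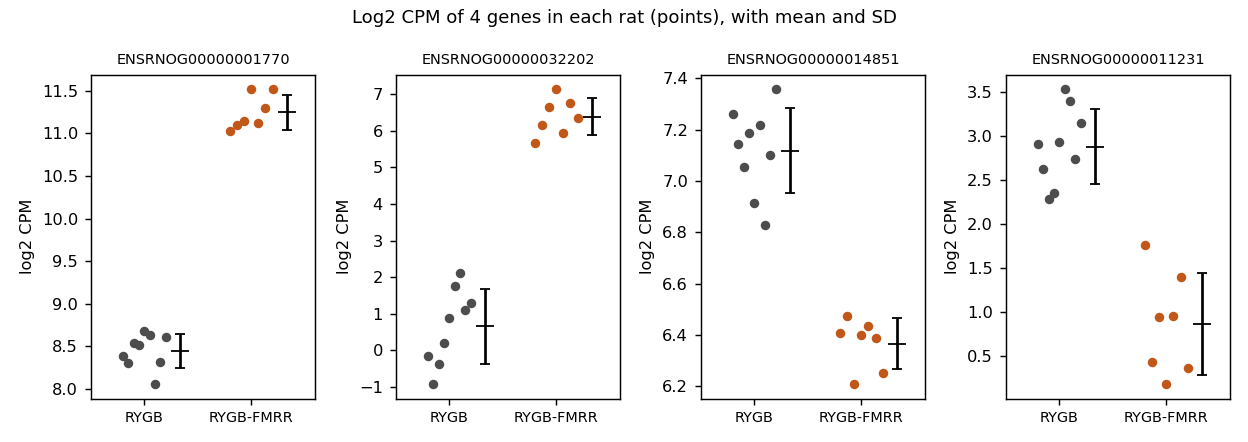
Log2 CPM (y axis) of the 4 genes given by identifier in each RYGB and RYGB-FMRR rat (points), with the group mean and standard deviation beside the points and a separate y range for each gene. These genes were chosen among changed genes whose groups do not overlap. Their log2 fold changes were 2.80, 5.60, -0.76 and -2.03 from left to right.

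Measured as a share of all counts, the higher genes held 5.69% to 7.33% of the counts of an RYGB rat and 10.3% to 12% of those of an RYGB-FMRR rat. The lower genes held 1.35% to 1.82% in RYGB and 0.978% to 1.09% in RYGB-FMRR. These shares describe the changed genes and were fixed in direction by their choice. Over the higher genes the gain was 51350 CPM, of which the 5 genes with the largest gains made 39.7%, whereas the lower genes together fell by 4627 CPM.

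Among the genes tested, the gene with the greatest gain also had the highest mean FPKM over all 16 rats. This 13-exon gene at chr5:137989329-138000280 ran from 3740 to 6630 CPM in RYGB rats and from 12300 to 14870 CPM in RYGB-FMRR rats, without overlap. Its log2 fold change was 1.37 ± 0.09 (SE, adjusted p = 1.45e-08, edgeR), and its gain alone was 15.4% of that of all higher genes. Next came the gene at chr3:177278783-177284731, which varied widely between rats, from 3587 to 9844 CPM in RYGB and from 9454 to 20410 CPM in RYGB-FMRR. The groups overlapped in that gene, and its log2 fold change was 0.85 ± 0.22 (SE, adjusted p = 0.015, edgeR). In RYGB rats its mean of 2626 FPKM was above the 2480 FPKM of the gene with the greatest gain. Others among the 5 separated the groups: the gene at chr10:103537778-103562620 ran from 753.5 to 1025 CPM in RYGB and from 1914 to 2747 CPM in RYGB-FMRR.

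Higher and lower genes lay at different levels. The median level over all 16 rats was 27.2 FPKM for higher genes, 2.76 FPKM for lower genes and 12.1 FPKM for all genes tested. In RYGB-FMRR 108 higher genes reached a mean of at least 100 FPKM, and 16 lower genes did so in RYGB. At the other end, 39 higher genes had a mean under 1 FPKM after RYGB alone, and 25 of these reached 1 FPKM or more with the drugs. Of the lower genes, 110 had a mean under 1 FPKM in RYGB-FMRR, and 40 of these had been at 1 FPKM or more in RYGB.

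Across all genes tested the fold change followed level. Level here is the mean FPKM over all 16 rats, which includes each gene's own change. With the genes in 10 classes of equal size by level, the median log2 fold change went from -0.148 in the lowest class to 0.113 in the highest. The lowest class held 21 higher and 83 lower genes (1.47% and 5.8%), and the highest 118 higher and 17 lower genes (8.24% and 1.19%). It also followed exonic length, from 0.064 in the shortest of 10 such classes, with a median length of 528 bases, to -0.092 in the longest, with a median of 5684 bases. The class of shortest genes held 45 higher and 24 lower genes, and the longest 16 higher and 56 lower genes. The median exonic length was 1757 bases in higher genes, 2548 in lower genes and 2015 in all genes tested, and the median number of exon blocks was 8 in each.

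**Figure D3:**
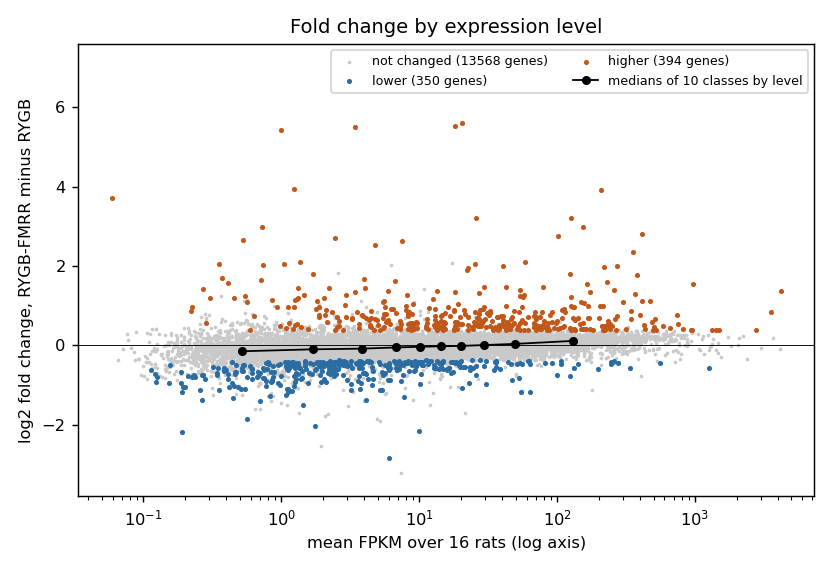
Log2 fold change between RYGB-FMRR and RYGB (y axis) of each gene tested against its mean FPKM over 16 rats (x axis, log scale), with changed genes coloured by direction and a line through the medians of 10 equal classes of genes by level. The line goes from -0.148 to 0.113, the 9 genes past a log2 fold change of 3 are all higher, and lower genes lie mostly at low level.

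The same trends were seen rat by rat. For each rat, the length tilt is the median deviation of its log2 CPM from the mean of all 16 rats in the class of longest genes, minus that in the class of shortest genes. It ran from -0.217 to 0.021 in RYGB-FMRR rats and was below 0 in 6 of 7, and it ran from -0.04 to 0.203 in RYGB rats and was above 0 in 6 of 9. The groups overlapped but differed in mean by -0.16 (exact two-sided permutation test, p = 0.00402, adjusted p = 0.0067). A level tilt computed likewise, most abundant class minus least abundant, was above 0 in 6 of 7 RYGB-FMRR rats and below 0 in 7 of 9 RYGB rats, with a mean difference of 0.237 (exact two-sided permutation test, p = 0.00376, adjusted p = 0.0067).

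The labels give neither RNA integrity values nor a preparation batch for the rats. The number of changed genes was 680 when the trend with length was removed from each library and 697 when the trend with level was removed, and 608 and 626 of the 744 were called in the same direction. With the length tilt of each rat as a term of the model, 338 genes were called, 223 of them higher and 115 lower, and 264 of the 744 were among them.

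Some changed genes were neighbours. Along the chromosomes there were 10 runs of at least 3 tested genes in a row that changed in the same direction, 8 of them higher with 26 genes and 2 of them lower with 6 genes. Of the 26 genes in higher runs the groups did not overlap in 23, against 47.2% of all higher genes and 2.47% of all genes tested. Among all changed genes, 78 higher genes (19.8%) had a higher gene as the tested gene next to them on at least 1 side, against 5.35% of all genes tested. For lower genes next to a lower gene the count was 30 (8.57%), against 4.81% of all genes tested. Whether neighbours are copies of each other that share reads was not tested. The counting command per the file headers had no option to count reads that map to several places.

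The longest run held 5 genes, all on the minus strand, at chr6:117987407-118083477, a stretch of 96.1 kb. Each had 3 or 4 exons and between 1263 and 2462 bases of exon. Summed over the 5 genes, the level was 164 to 240.1 CPM in RYGB rats, with a median of 188.6. In RYGB-FMRR rats it was 380 to 528 CPM, with a median of 458, without overlap. The run was defined by genes called higher in these same rats, so the direction of this difference was fixed by that choice. The members differed in level. The first, at chr6:117987407-117994244, was low, with 0.315 ± 0.298 FPKM (SD, n = 9) in RYGB and, with the drugs, 1.29 ± 0.48 FPKM (SD, n = 7), and was the only member whose groups overlapped (log2 fold change 2.03 ± 0.42, SE, adjusted p = 0.0038, edgeR). The second, at chr6:118006796-118012735, changed least, from 23.9 ± 2.45 to 43.7 ± 6.94 FPKM (log2 fold change 0.87 ± 0.09, SE, adjusted p = 2.2e-06, edgeR).

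The remaining members of the run changed by similar amounts. The third, at chr6:118021372-118026536, went from 10.9 ± 1.86 to 27.7 ± 3.86 FPKM. The fourth, at chr6:118051433-118059103, went from 31.5 ± 5.31 to 82.4 ± 13.9 FPKM. The fifth, at chr6:118076658-118083477, went from 33.4 ± 4.54 to 79.9 ± 9.3 FPKM. Their log2 fold changes were 1.35 ± 0.10, 1.38 ± 0.11 and 1.26 ± 0.08 (SE), with adjusted p-values of 4.78e-08, 6.26e-08 and 1.27e-08 in edgeR. Of the 16 nearest tested genes, 8 to either side, 1 changed, a 27-exon gene at chr6:118266310-118293920 with a log2 fold change of 1.16 ± 0.16 (SE, adjusted p = 0.000113, edgeR), and none of the nearest on either side did.

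**Figure D4:**
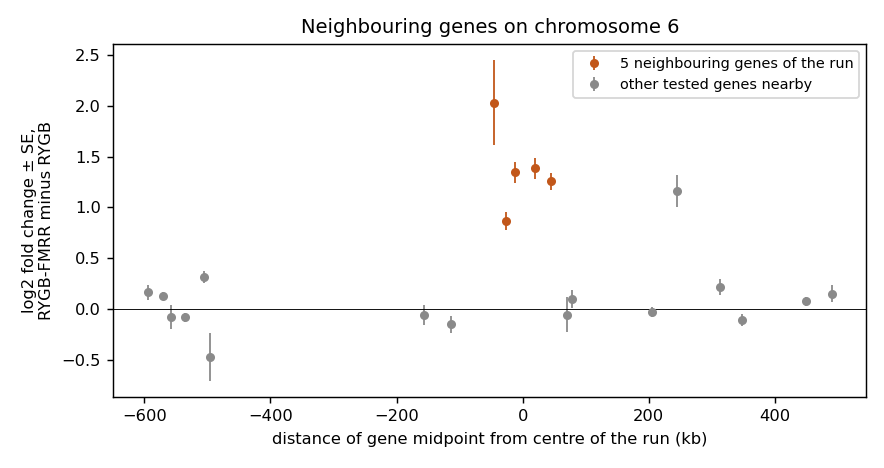
Log2 fold change between RYGB-FMRR and RYGB with its standard error (y axis) of tested genes by the distance of their midpoint from the centre of the chromosome 6 run in kb (x axis). The 5 genes of the run lie between 0.87 and 2.03, and of the 16 other genes shown only the one at 1.16 was called changed.

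A higher run on chromosome 5, at chr5:137989329-138316870, held the gene with the greatest gain described above and 2 more. The gene at chr5:138259232-138316870, on the minus strand, ran from 1444 to 2357 CPM in RYGB rats and from 4809 to 6633 CPM in RYGB-FMRR rats (log2 fold change 1.55 ± 0.09, SE, adjusted p = 2.09e-09, edgeR). Within its span lies a plus-strand gene, at chr5:138283579-138297977, which ran from 40.0 to 114.4 CPM in RYGB and from 322.5 to 621 CPM in RYGB-FMRR (log2 fold change 2.77 ± 0.20, SE, adjusted p = 3.33e-08, edgeR). Reads were counted by strand, which keeps the pair apart as far as the library marks it. All 3 genes, which were called higher in these same rats, separated the groups completely.

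One of the lower runs began with ENSRNOG00000014851 and spanned chr9:88062427-88282366. Its second gene, at chr9:88104688-88232032, has 52 exon blocks and starts just past the end of the first on the other strand. It ran from 167.1 to 337.2 CPM in RYGB and from 122.6 to 180.1 CPM in RYGB-FMRR, with a slight overlap (log2 fold change -0.60 ± 0.13, SE, adjusted p = 0.00474, edgeR). The third had at most 38 counts in any rat and only just passed (log2 fold change -1.33 ± 0.43, SE, adjusted p = 0.047, edgeR).

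Individual rats were then placed between the groups by genes called changed without them. Each rat was left out in turn, the genes changed between the other 15 rats were found, and the rat was placed on a scale where 0 is the mean of the remaining RYGB rats and 100% the mean of the remaining RYGB-FMRR rats, as a median over those genes. Between 593 and 852 of these genes were used for a rat, which for some rats was slightly fewer than were called. In the higher genes RYGB-FMRR rats lay at 80.4% to 106.3%, with a median of 95.8%, and RYGB rats at -12.8% to 31.2%, with a median of -3.09%. The groups were thus well apart and each RYGB-FMRR rat showed the increase. In the lower genes RYGB-FMRR rats lay at 59.2% to 98.5%, with a median of 80.5%, and RYGB rats at -24.3% to 55.2%, with a median of 21.3%. The groups came close to each other there, between RYGB rat 337 at 55.2% and RYGB-FMRR rat 326 at 59.2%.

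**Figure D5:**
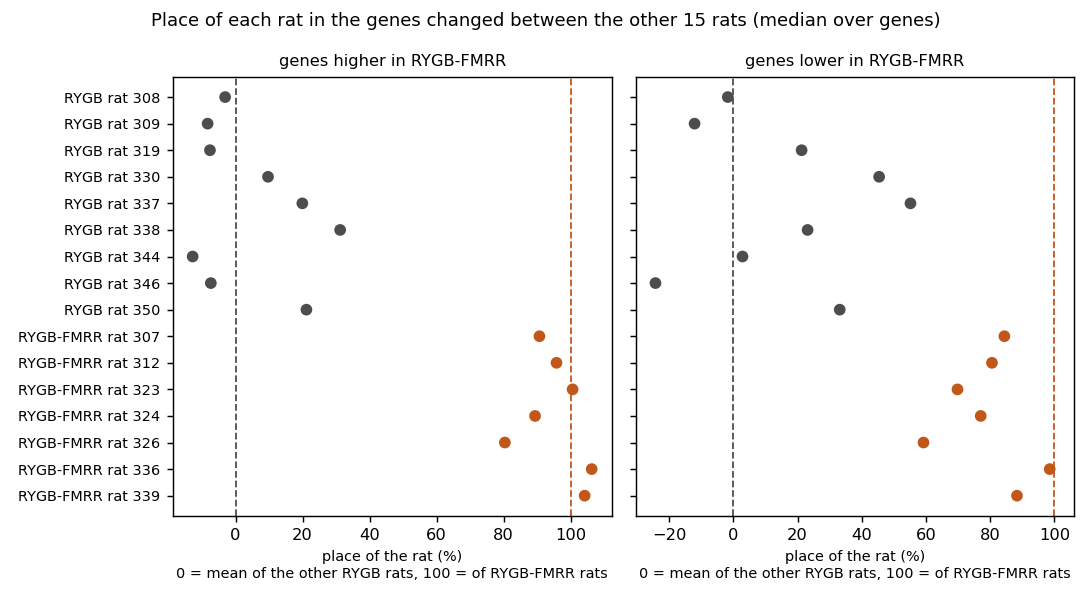
Place of each rat (x axis, percent of the way from the mean of the other RYGB rats to that of the other RYGB-FMRR rats, median over genes) in the genes called higher or lower without it. RYGB-FMRR rats lie at 80.4% to 106.3% and RYGB rats at -12.8% to 31.2% in higher genes, and the groups approach each other in lower genes, at 55.2% and 59.2%.

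The tilts of the rats at the inner edge of each group varied. In the higher genes the RYGB rat nearest to RYGB-FMRR was rat 338, at 31.2%, with a length tilt of 0.111 and a level tilt of -0.207. In the lower genes the nearest were rats 337, 330 and 350, at 55.2%, 45.4% and 33.1%, with length tilts of -0.033, -0.04 and -0.003. Rat 338 came next, at 23.1% with a length tilt of 0.111, and then rat 319, at 21.3% with a length tilt of 0.003. RYGB-FMRR rat 326, the lowest of its group in both gene sets, had a length tilt of 0.021 and a level tilt of -0.097, where the others of its group were below 0 in length tilt and above 0 in level tilt. Over all genes called, higher and lower together, the lowest RYGB-FMRR rat lay at 70.7% and the highest RYGB rat at 32.7%. These values were 72.2% and 29.7% with the trend in length removed, 74.1% and 29.6% with the trend in level removed, and 61.6% and 40.8% with libraries scaled by their totals alone.

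Principal component analysis of log2 CPM over the 16 rats put 25.3% of the variance on a first component that did not separate the groups and 20.1% on a second that did. On the second component RYGB-FMRR rats ran from 1.5 to 32 and RYGB rats from -23.5 to -3. On the first, RYGB rats 344 and 346 lay farthest out, at 41.9 and 27.6, where the other RYGB rats lay at or below 13.3 and RYGB-FMRR rat 336 lay at 21.2. Rats 344 and 346 also had the smallest totals and the largest length tilts (0.203 and 0.185). Without both, 508 genes were called, 311 higher and 197 lower, and 483 of the 744 were among them. The distance of a rat from the mean of the others of its group did not separate the groups either, at 0.317 ± 0.0574 log2 units (SD) for the 7 RYGB-FMRR rats and 0.318 ± 0.0506 for the 9 RYGB rats (exact two-sided permutation test, p = 0.964, adjusted p = 0.964).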

How the data were processed

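Per the study's methods and the file headers, the steps the authors ran were quality control (FastQC 0.11.2), trimming (Trim Galore 0.4.0 with Cutadapt 1.9), alignment by STAR 2.5.2b to the build rn5 and counting of read pairs by strand on Ensembl exons (featureCounts 1.6.4). The deposited values are raw counts per gene, neither normalized nor filtered. Groups were taken from the labels. Of 26404 genes listed, 14312 passed filterByExpr (minimum count 10). The 16 libraries alone were scaled by TMM and tested by quasi-likelihood in edgeR 4.0.16 (R 4.3.3), without covariates. Thresholds of 1.3-fold and an adjusted p-value of 0.05 (Benjamini-Hochberg) follow the study's methods, which used DESeq2. Standard errors were derived from each gene's log2 fold change and F statistic. Log2 CPM used a prior count of 2, and FPKM is CPM per kb of exon. Rats are separate animals. The scripts were tested on simulated data.

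The comparison, measures and gene lists were chosen with earlier results of these data known. Named genes were to be those with a symbol, groups that do not overlap, and either the smallest adjusted p-values or, at a mean log2 CPM of at least 1, the largest folds. With 0 of 26404 identifiers matched to a name, 1 gene per part of the rule and direction was given by identifier. Genes given by position were chosen after their values were seen, and the gene lists were not analysed here. The 37 mitochondrial genes had 0 counts. Alternatives were the DESeq2 Wald test (1.42.0), limma-voom (limma 3.58.1), DESeq2 size factors, library totals alone, other filters and thresholds, a test against a fold of 1.3, all 4 groups in the model, 2 surrogate variables (sva 3.50.0), thinning to 16399376 counts, and each rat left out. Offsets by length or level, the length tilt as a term and leaving out rats 344 and 346 were added after seeing the data.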

Additional observations from a re-analysis of the deposited data

How the results depend on the processing

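The count of 744 changed genes kept within 1.5 times under most alternatives. It was 2123 by the adjusted p-value alone and 162 when edgeR tested against a fold of 1.3, both by construction, and 338 with the length tilt of each rat as a term, where the cause was not tested. Leaving out each rat in turn gave 593 to 856, lowest without RYGB rat 346 and highest without RYGB-FMRR rat 326. With DESeq2 849 genes were called, and 726 of the 744 were among them. By the test against a fold of 1.3, 136 genes were higher and 26 lower. Past 4-fold, the 24 higher and 4 lower genes became 44 and 16 without a filter on low counts. With all 4 groups in the model they were 28 and 7. Each of the 4 identified genes had the same direction and passed under each alternative run on them. The difference in library totals was 3165000 (p = 0.0106, exact two-sided permutation test) also over tested genes alone. No paired analysis was possible because no rat belongs to both groups and the labels share no replicate numbers. Alternatives for the gene lists were not run, since identifiers could not be matched to names. Lower genes numbered 270 under the stricter filter on low counts, in place of 350. The number of runs of neighbouring genes, 10 in the main test, depended on the setting. It was 5 with DESeq2, 4 without a filter on low counts, 10 with limma-voom and 24 by the adjusted p-value alone. The DESeq2 and unfiltered settings tested 20915 genes in place of 14312, which changes the tested neighbours of a gene. Depth differed between the groups, and with libraries thinned to equal totals 715 genes were called, 390 higher and 325 lower.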

Other observations

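Over all genes tested, 2.75% were higher and 2.45% were lower. Among the 21 chromosomes with at least 100 tested genes, chromosome 5 held the largest share of higher genes, 49 of 954 tested (5.14%), and chromosome 11 the smallest, 3 of 360 (0.833%). The share of lower genes was largest on chromosome 9, with 25 of 551 (4.54%), and smallest on chromosome 6, with 8 of 650 (1.23%). Among the 100 genes with the highest mean FPKM, 14 were higher and 2 were lower in RYGB-FMRR. These shares were not tested.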
